A study of Mus musculus with 6 samples.

Results

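The GFP shRNA control cells of a knockdown study were described here on their own, as a picture of which transcripts give signal in myoblasts arrested in suspension. They are the 3 arrays labelled as GFP shRNA controls, of 6 arrays in the series, chosen by their titles. The other 3 arrays carry an shRNA against PRDM2 and are not used. The cells are C2C12, a mouse myoblast line, carried as a stable pool with the control GFPshRNA. They were grown in Dulbecco's modified Eagle medium with 20% fetal calf serum and then held for 48 hours in methylcellulose suspension medium, also with 20% fetal calf serum. The labels give their state as G0, the resting state outside the cell cycle. The 3 samples are labelled as biological replicates of the pool. Separate transfections are not mentioned, so the spread given here is between these samples and may be partly technical. No array of dividing or adherent cells was used, so every statement is about the level in arrested cells and none is about a change on arrest.

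Myoblasts are committed muscle precursors that carry the myogenic factors Myf5 and MyoD and, when growth factors are withdrawn, leave the cell cycle for good and fuse into myotubes. Cells that normally grow attached stop dividing when they are kept in suspension, and C2C12 cells so treated do not fuse, can re-enter the cycle when replated, and have long served as a culture model of the quiescent muscle stem cell. Quiescence is an active state, in which inhibitors of cyclin-dependent kinases, forkhead factors and chromatin regulators hold back both division and differentiation.

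Each value is a deposited intensity, the fluorescence summary of 1 probe set on 1 Affymetrix array, on a linear scale with no unit. A gene was placed in the high class where its brightest probe set read at least 1000 on all 3 arrays, in the middling class where it read at least 16 on all 3 without reaching 1000 on all 3, and in the class under 16 where every one of its probe sets read under 16 on all 3. The remaining genes lay on both sides of 16. Probe sets differ in how strongly they bind, so these classes sort signals and do not rank transcripts by copy number. In a bulk sample fewer cells of a kind and less RNA per cell cannot be told apart. Of 45101 probe sets, 34945 carried exactly 1 gene symbol.

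The 4 probe sets of Gngt1, a G protein gamma subunit of photoreceptors, read between 1.29 and 4.47 on control arrays 1 and 2, and all 4 read exactly 14699 on control array 3. That number equals the Entrez gene identifier of Gngt1 in the platform annotation, and no intensity of another named probe set on the 3 arrays equalled its gene's identifier. Gngt1 was left out, which leaves 18192 genes. Array medians over probe sets were 11.1, 12.1 and 10.6. Control array 3 stood apart in its control signals: the ratio of the 5' to the 3' control probe set of Gapdh was 0.904, 1.14 and 0.0992 on arrays 1 to 3, and that of beta-actin was 0.302, 0.723 and 0.114. The control probe set for the 3' part of 18S ribosomal RNA read 71.3, 208 and 1423 on arrays 1 to 3. Array 2 was the low array for the bacterial BioB, BioC and BioD hybridization controls, with BioB-3 at 63.1, 30.9 and 85.3 and BioC-3 at 200.4, 90.3 and 216. The part of these control signals in the values of the genes was not tested. Totals and spread are also given without array 3, and leaving it out changed the number of members at 16 or more by over 1.5 times for 0 of the 42 gene lists.

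Of the 18192 genes, 9567 (52.6%) read at least 16 on all 3 arrays, 6946 (38.2%) were under 16 with every probe set on all 3, and 1679 (9.23%) lay on both sides of 16. The high class held 241 genes, or 1.32%, and the middling class 9326, or 51.3%. At least 100 on all 3 arrays was read by 3990 genes, or 21.9%. These shares of all genes are the background for the list counts below. By these rules a gene with more probe sets has more chances to reach 16. Several probe sets were held by 6007 of 9326 middling genes, 1963 of 6946 genes under 16 and 9009 of all 18192 genes. The part of probe set number in the list counts was not tested. The distribution of log2 intensity had a dim and a bright shoulder on each array, with the value of 16 lying between them. Just inside the high class, Tcp1, a subunit of the CCT chaperonin, read 1228, 1252 and 1002 on arrays 1 to 3, and just outside it Sf1, a splicing factor, read 1073, 1679 and 997. At the lower threshold, Znfx1 read 24.5, 26.1 and 16.003 and was middling, whereas the probe set of Gm45351 read 14.4, 15.998 and 12.6 and was under 16. Genes this close to a threshold differ by less than their spread between arrays.

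**Figure D1:**
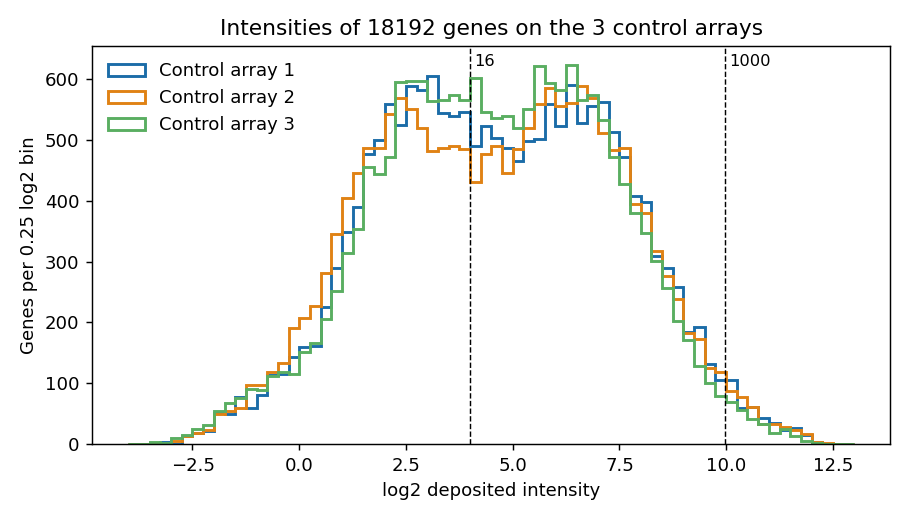
Number of genes by log2 deposited intensity on each of the 3 control arrays, 1 line an array, with dashed lines at 16 and 1000. The lines of the 3 arrays lie near each other, and 42.2% to 43.3% of genes are under 16 on any 1 array.

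The 30 genes with the highest lowest value on the 3 arrays included genes for the translation machinery, the cytoskeleton, the matrix and glycolysis. Cytosolic ribosomal proteins made up 15 of the 30. Lgals1, the beta-galactoside-binding lectin galectin-1, read 5188, 5487 and 4736 on arrays 1 to 3, a mean of 5137 ± 378 (SD, n = 3). Tmsb10, an actin-sequestering thymosin, read 4736, 4943 and 4124, and Tpt1, the translationally controlled tumour protein, read 4751, 4823 and 4016. Each of these 3 genes had its lowest value on array 3. S100a4, a calcium-binding protein of motile mesenchymal cells, read 3246, 3570.2 and 3198. Car3, a carbonic anhydrase abundant in skeletal muscle, read 3733, 3771 and 2939, and Akr1a1, an aldehyde reductase, read 3360.5, 3302 and 2867. Another probe set of Car3 read 1294, 3434 and 327, with array 2 high. Mt1, a metal-binding metallothionein, read 3402, 3484 and 2895 and Ndrg1, a hypoxia-responsive gene, read 3703, 3515 and 3265. The lowest of the 3 values was on array 3 for 25 of the 30 genes and on array 2 for 5. Probe sets whose name ends in _s_at or _x_at, which match more than 1 transcript or share probes with others, represented 40.0% of these 30 genes, 34.0% of the high class and 9.19% of all genes, so that part of the ribosomal signal can come from near-identical copies.

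Cytosolic ribosomal proteins were mostly high, and other protein synthesis genes mostly middling. Of 29 listed cytosolic ribosomal proteins 18 could be named, and 16 of these were in the high class and 2 in the middling class, where 1.32% of all genes were high. Rplp0, a protein of the ribosomal stalk, read 3001, 3385 and 2635, and Rpl4, of the large subunit, read 2778, 2898 and 2734. The 2 middling members were Rpl37, at 1549, 479.8 and 1235, and Rps6, the S6 kinase substrate, at 125, 84.6 and 129.5. Rpl37 varied 3.23-fold between arrays, with array 2 the low value, whereas Rpl4 varied 1.06-fold. Among 49 members of the whole cytosolic ribosomal protein family by symbol, 35 were high, 11 middling and 3 under 16. All 76 mitochondrial ribosomal proteins, which serve the separate ribosome of that organelle, were middling. Of 47 translation initiation factors by symbol 7 were high and 36 middling. Of 17 translation factors 8 were high and 9 middling, where 51.3% of all genes were middling. Eef1a1, which brings aminoacyl-tRNA to the ribosome, read 3687, 4432 and 3405, and Eef2, the translocation factor, read 2228, 2799 and 1749. Eef1a2, the form that replaces Eef1a1 in mature muscle, read 155, 176 and 219. Eif4ebp1, which blocks cap-dependent initiation until it is phosphorylated, read 1019.7, 595 and 751, and the cap-binding factor Eif4e read 321, 437 and 150.1.

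Energy metabolism was represented by high signals in both glycolysis and the respiratory chain. Of 15 measured glycolytic enzymes 8 were high, 6 middling and 1 under 16. Over all genes 1.32% were high and 52.6% read at least 16. Pgk1, phosphoglycerate kinase, read 3380.1, 3799.5 and 2734, Ldha, the lactate dehydrogenase subunit that favours lactate formation, read 3107, 3588 and 2802, and Tpi1, triosephosphate isomerase, read 3145, 3257 and 2775. Among muscle-type members, Eno3, the muscle enolase, read 273, 246 and 336. Pgam2, the muscle phosphoglycerate mutase, read 7.42, 9.36 and 12.4, which is under 16 on all 3. Aldoa, the aldolase of muscle, was high at 2743, 2952 and 2280, so muscle-type members did not all lie in lower classes. Of 25 genes of the respiratory chain and ATP synthase 9 were high, 15 middling and 1 under 16. Atp5a1, the alpha subunit of ATP synthase, read 1192, 1138 and 1157, a spread of 1.05-fold. The heart and skeletal muscle forms of cytochrome oxidase subunits, Cox6a2 and Cox7a1, read 117, 76.7 and 139.6 and 133, 55.01 and 155 and were middling, and Cox8b was under 16 at 12.6, 6.66 and 8.12. Of 14 sterol synthesis genes 11 were middling and 0 high. Sqle, squalene epoxidase, read 373, 300.4 and 231, and the mevalonate kinase Mvk was the member under 16, at 8.89, 9.99 and 12.2.

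Protein quality control and degradation genes gave signal almost throughout. Of 25 chaperones 8 were high and 15 middling, where 1.32% of all genes were high and 52.6% read at least 16. Hspa5, the endoplasmic reticulum chaperone BiP, read 3183, 2886 and 2089, Hspa8, the constitutive HSP70 of the cytosol, read 2611, 2159 and 2428, and the heat-inducible Hspa1b read 217, 258 and 194. Small heat shock proteins of muscle were spread over the classes, with Hspb1 at 1476, 1662 and 1241, Cryab at 1019.6, 453 and 609, and Hspb3 under 16 at 0.813, 1.404 and 2.57. Of 23 proteasome subunits 22 were middling and 1 under 16. The member under 16 was Psmb9, an interferon-inducible subunit of the immunoproteasome, at 4.03, 3.09 and 2.51, while its partners Psmb8 and Psmb10 read 28.8, 26.7 and 29.8 and 62.3, 58.6 and 104. All 13 measured genes of the lysosome and iron storage list read at least 16, and 7 were high. Ctsb, the cysteine protease cathepsin B, read 2834, 3533 and 2325, Psap, the saposin precursor, read 2761, 3288 and 2449.8, and Fth1, the ferritin heavy chain, read 2624, 3464 and 2842. All 14 autophagy genes read at least 16. Map1lc3a, an LC3 protein of the autophagosome membrane, read 1553, 1434 and 1443 and was high, as was the mitophagy receptor Bnip3 at 1923, 2054 and 1432. Tfeb, a transcription factor for lysosomal genes, read 30.3, 38.9 and 28.3.

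**Figure D2:**
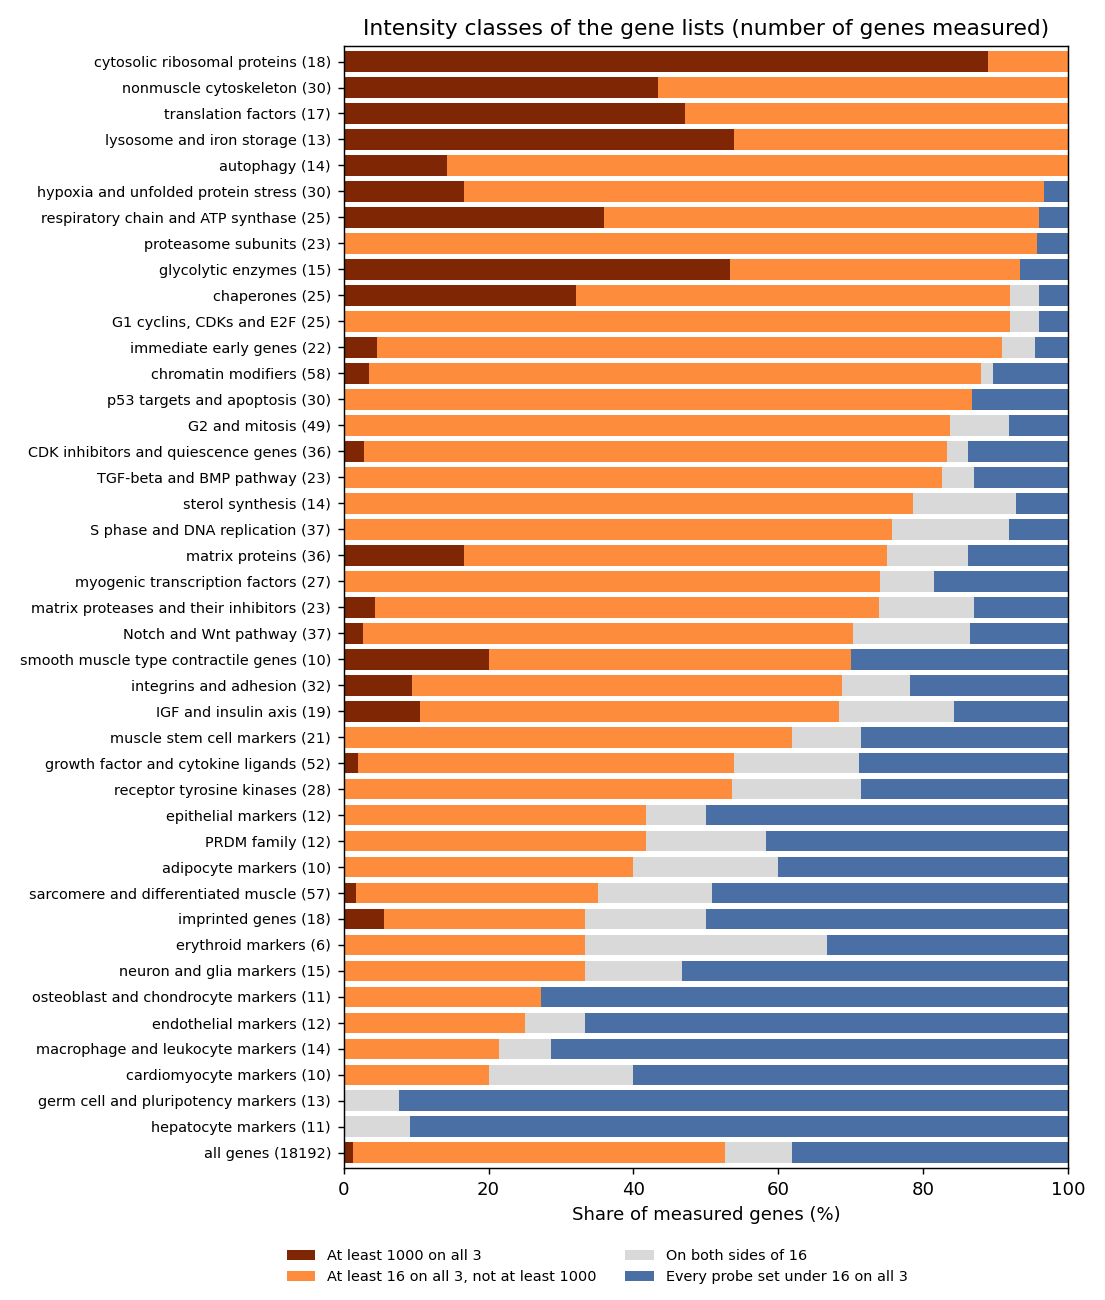
Share of the measured genes of each of 42 gene lists in each intensity class, as horizontal stacked bars with the number of measured genes in brackets, and all 18192 genes at the bottom. Lists of ribosomal, cytoskeletal and lysosomal genes hold only middling and high genes, and hepatocyte and germ cell lists hold 0 genes of at least 16 on all 3 arrays.

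Nonmuscle cytoskeleton genes were all middling or high. All 30 measured nonmuscle cytoskeleton genes read at least 16, and 13 were high, against 52.6% and 1.32% of all genes. Vim, the mesenchymal intermediate filament vimentin, read 2977, 4088 and 2884, the cytoplasmic actin Actg1 read 3292, 3678 and 2814, and Tuba1a, an alpha-tubulin, read 2693, 2571 and 2476. Anxa2, a membrane-binding annexin, read 2662, 3329.8 and 2559.8 and S100a6, calcyclin, read 2782, 2719 and 2477. Actb, the other cytoplasmic actin, read 2195, 3801 and 1408 at its brightest probe set, a 2.70-fold spread with array 2 high and array 3 low. Its other probe set read 755, 476 and 1267, with array 3 high and array 2 low, so the order of the arrays for Actb is not settled. In the list of smooth muscle type contractile genes, 2 of 10 were high, 5 middling and 3 under 16. Acta2, smooth muscle alpha-actin, read 1552, 689.9 and 1112, and Cald1, the actin-binding caldesmon, read 1622, 1911 and 1408. Cnn1 and Myh11, which mark differentiated smooth muscle, read 12.8, 4.11 and 13.2 and 9.702, 1.42 and 10.3 and were under 16, and Tagln read 70.8, 35.6 and 29.9.

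Extracellular matrix genes ranged from high to under 16. Of 36 measured matrix proteins 6 were high, 21 middling, 4 on both sides of 16 and 5 under 16. Thus 75% read at least 16, against 52.6% of all genes. Col3a1, the chain of type III collagen, read 3566, 4289.6 and 3022, Fn1, fibronectin, read 3219.9, 3908 and 2784, and Sparc, a collagen-binding matricellular protein, read 2960.4, 3465 and 2426. The other probe set of Fn1 read 234, 3341 and 213, with array 2 high. The chains of type I collagen lay far apart in signal, with Col1a2 at 1897, 2836 and 1547 and Col1a1 at 30.7, 14.3 and 18.3, and the other Col1a1 probe set read under 16 on all 3 arrays. Both chains are needed for the usual form of this collagen, and the values compare probe sets and not transcripts. The elastic fibre genes Eln and Fbln5 read 11.5, 9.23 and 11.98 and 15.3, 16.1 and 11.6. The basement membrane proteins divided likewise, with Nid1 at 1552, 1808 and 908 and Nid2 at 3.19, 3.601 and 2.96. Of 42 collagen chains by symbol 3 were high, 15 middling and 17 under 16, so that 42.9% read at least 16.

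Among 23 genes for matrix proteases and their inhibitors 1 was high, 16 middling and 3 under 16. Thus 73.9% read at least 16, against 52.6% of all genes. Timp2, which inhibits metalloproteinases and takes part in activating Mmp2, read 2099, 2719 and 1595. Mmp2, a gelatinase, read 1145, 918 and 744 and Mmp14, the membrane protease that activates it, read 508, 884 and 459. These inhibitors and proteases were thus present together in the middling and high classes. The stromelysin Mmp3 and the collagenase Mmp13 were under 16, at 3.81, 2.47 and 2.52 and 2.51, 4.91 and 1.91. Lox, the enzyme that cross-links collagen, read 1791, 2252 and 822, a 2.74-fold spread with array 3 low. Of 32 integrins and adhesion genes 22 (68.8%) read at least 16 and 7 were under 16. Itgb1, the common beta chain, read 305, 201 and 203, Itgav read 878, 974 and 702 and Itga5, the fibronectin receptor alpha chain, read 424, 459 and 312. Itga7, the laminin receptor chain of muscle, read 118, 101 and 95.9, and Cdh15, M-cadherin, read 55.9, 41.9 and 57.02. The epithelial members Cdh1 and Itgb6 read 10.8, 3.65 and 9.26 and 4.997, 8.72 and 6.87.

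Of 27 measured myogenic transcription factors 20 (74.1%) were middling, 2 lay on both sides of 16, 5 were under 16 and 0 were high. Over all genes 52.6% read at least 16. Myf5 and Myod1, the determination factors, read 220.0, 170.1 and 143 and 209.6, 194 and 92.6 on arrays 1 to 3. Both were clear of 16 on every array, and Myod1 had its low value on array 3. Myog, the factor that drives terminal differentiation, read 44.1, 15.8 and 16.5: array 1 was above 16 and the other values lay at that threshold. Myf6 was under 16 at 2.18, 2.36 and 3.48. Mef2a, a partner of the myogenic factors, read 337, 359 and 213 and Mef2d 137, 214 and 159, whereas Mef2c read 9.64, 6.32 and 9.04. Inhibitors of myogenic factors were divided. Id2 read 1252, 1109 and 734, Id3 read 806, 742 and 667 and Id1 read 417, 582 and 309.6. The zinc finger repressor Snai2 read 496, 579 and 468, whereas Msc, a repressor too, was under 16 on every array. Eya1 and Eya4, coactivators of homeobox factors, read 284, 320.4 and 149 and 249.6, 224 and 206.

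Of 21 measured markers of muscle stem cells in tissue 13 (61.9%) were middling, 2 on both sides of 16 and 6 under 16, where 52.6% of all genes read at least 16 and 38.2% were under it. Pax7, the paired-box factor that defines muscle stem cells, read 1.996, 3.19 and 0.917 and Calcr, the calcitonin receptor of quiescent ones, read 4.797, 4.05 and 5.92. Pax3 and Heyl, a Notch target, were under 16 too, at 8.24, 10.8 and 13.99 and 11.6, 9.702 and 10.4. By contrast Megf10, a receptor of stem cell myoblasts, read 424, 351 and 266, Cxcr4, the receptor for Cxcl12, read 191, 251 and 120.0, and Cd34, a sialomucin, read 56.5, 74.7 and 47.8. Sdc4, a syndecan of muscle stem cells, read 387, 72.02 and 249, a 5.37-fold spread with array 2 low, so its level is poorly fixed by these arrays. Spry1, a feedback inhibitor of growth factor signalling in quiescent stem cells, lay on both sides of 16 at 15.7, 22.4 and 12.7.

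Sarcomere and differentiated muscle genes were mostly dim. Of 57 measured 1 was high, 19 middling, 9 on both sides of 16 and 28 under 16, so that 35.1% read at least 16 against 52.6% of all genes. The high gene was Tpm2, beta-tropomyosin, which nonmuscle cells also make, at 1672, 1471 and 1688. Des, the muscle intermediate filament desmin, read 865, 1111 and 954 and Chrna1, the alpha subunit of the acetylcholine receptor, read 881, 759 and 615. Tnni1, the slow troponin I, read 349.6, 281 and 278. Acta1, skeletal alpha-actin, read 98.9, 53.3 and 89.8, Mylpf, a fast myosin light chain, read 117, 37.6 and 119.9 and Tnnt1, the slow troponin T, read 105, 41.6 and 95.7, each with its low value on array 2. The myosin heavy chains were dimmer, with Myh3, the embryonic form, at 26.1, 12.9 and 26.2 and Myh1, Myh2, Myh4, Myh7 and Myh8 under 16 on all 3 arrays. The fusion genes Mymk and Mymx read 4.63, 5.18 and 2.44 and 5.31, 4.04 and 5.34, and Ryr1, the calcium release channel, read 7.59, 5.46 and 4.503. Among members of at least 16 the median deviation from the gene's mean log2 value was 0.23, -0.13 and 0.16 on arrays 1 to 3.

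**Figure D3:**
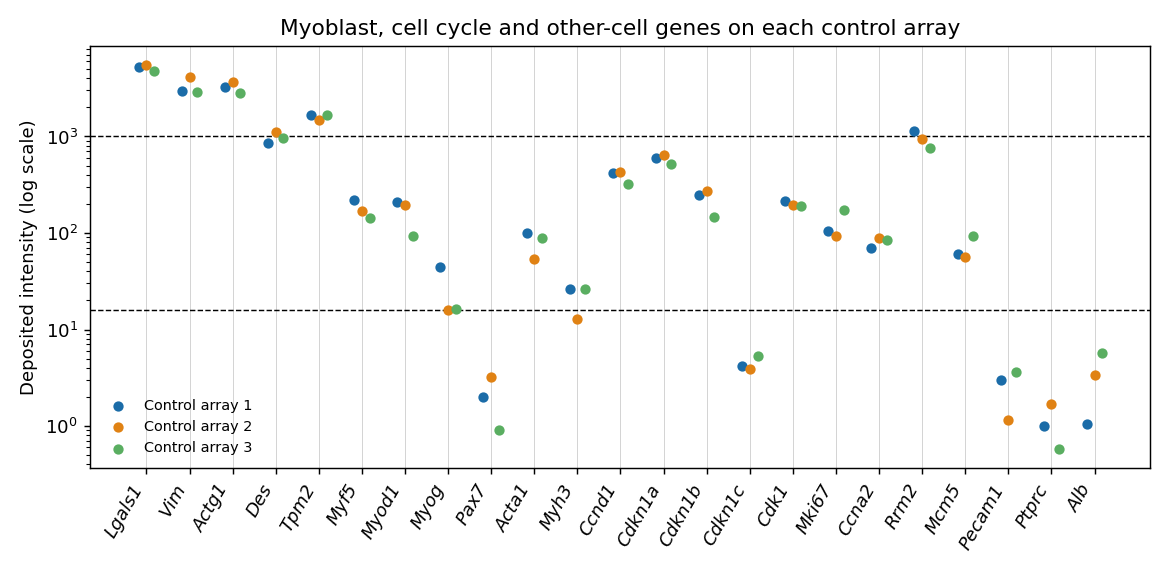
Deposited intensity on a log axis of 23 genes on each of the 3 control arrays, 1 point an array, with dashed lines at 16 and 1000. Lgals1, Vim, Actg1 and Tpm2 lie above 1000 on all 3 arrays, Myf5, Myod1, Cdk1 and Mki67 lie between the lines, and Pax7, Cdkn1c, Pecam1, Ptprc and Alb lie under 16.

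Cell cycle genes were largely middling in these cells, which the labels describe as arrested. Of 25 G1 cyclins, kinases and E2F factors 23 (92%) were middling, 1 on both sides of 16, 1 under 16 and 0 high. Over all genes 52.6% read at least 16. Ccnd1, cyclin D1, read 421, 429 and 325 and its partner kinase Cdk4 read 598, 678 and 527. Ccne1, cyclin E1, read 76.5, 91.8 and 137, and E2f2 was the member under 16, at 4.896, 6.8997 and 7.73. The retinoblastoma gene Rb1 read 264, 161 and 172 and Rbl2, which encodes the p130 pocket protein of resting cells, read 99.8, 174 and 41.96, a 4.15-fold spread with array 3 low. Myc, a driver of growth and entry into the cycle, read 91.8, 74.2 and 43.2.

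Of 36 measured inhibitors of cyclin-dependent kinases and other quiescence genes 1 was high, 29 middling, 1 on both sides of 16 and 5 under 16. The share at 16 or more was 83.3%, against 52.6% of all genes. Cdkn1a (p21) read 595, 641 and 519, a mean of 585 ± 61.6 (SD, n = 3), Cdkn1b (p27) read 249.6, 271 and 146 and Cdkn2c (p18) read 124, 118 and 86.2. Cdkn1c (p57) read 4.22, 3.92 and 5.29, Cdkn2a, of the p16 and p19ARF locus, read 5.11, 1.999 and 2.82 and Cdkn2b (p15) read 6.94, 0.681 and 13.8. Cdkn2d, another inhibitor, read 117, 99.8 and 55.2. The inhibitors thus fell into different classes, middling for p21, p27, p18 and Cdkn2d and under 16 for p57, p15 and the Cdkn2a locus. The value of p15 on array 3, 13.8, lay near the threshold. Btg1, an antiproliferative gene, was the high member at 1435, 1366 and 1208. Gas1, a growth arrest gene, read 883, 1502 and 541 and Rgs2, a regulator of G protein signalling, read 988, 1079 and 756. The forkhead factors Foxo1 and Foxo3 read 170.0, 172 and 191 and 299, 217 and 275, and Foxo4 read 47.5, 41.2 and 37.3. Klf2 and Klf4, zinc finger factors of resting cells, read 56.2, 44.04 and 39.6 and 230.5, 174 and 115.

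Genes that act in S phase and mitosis were not absent. Of 37 genes of DNA replication 28 (75.7%) were middling, 6 on both sides of 16 and 3 under 16, where 52.6% of all genes read at least 16. Rrm2, a subunit of ribonucleotide reductase, read 1129.7, 937 and 752, Pcna, the sliding clamp, read 591, 771 and 409, and Mcm7, a subunit of the replicative helicase, read 219, 184 and 290.2. Cdt1, which loads the helicase at origins, read 360.3, 232 and 296 and its inhibitor Gmnn, geminin, read 141, 77.98 and 127. Cdc6, the other loading factor, was under 16 at 13.5, 12.6 and 12.8, as were Orc1 at 8.06, 5.17 and 5.55 and Gins2 at 14.5, 14.5 and 14.8. Of 49 genes of G2 and mitosis 41 (83.7%) were middling, 4 on both sides of 16 and 4 under 16, against 52.6% of all genes at 16 or more. At least 100 on all 3 arrays was read by only 7 of these 49 genes, against 21.9% of all genes. The median of their mean intensities was 48.2, against 25.9 over all genes. Stmn1, a microtubule destabiliser, read 669, 599.8 and 757, Pttg1, securin, read 616, 471 and 497, and Cdk1, the mitotic kinase, read 216, 196 and 192. Mki67, the proliferation marker Ki-67, read 105, 92.7 and 175 and Top2a, topoisomerase II alpha, read 171, 153 and 202. Ccna2, cyclin A2, read 69.1, 88.3 and 84.6 and Ccnb2, cyclin B2, read 54.3, 68.7 and 66.03. Mitotic members near or under 16 included Foxm1, a transcription factor of G2 genes, at 10.5, 10.8 and 16.02, the kinesin Kif11 at 8.57, 16.7 and 8.35, the kinetochore protein Ndc80 at 12.1, 10.2 and 11.1, and Mybl2 at 8.79, 5.99 and 3.75. Whether a minority of cells was cycling was not tested. Array 3 was the highest for this list, with median deviations of -0.08, -0.01 and 0.08 on arrays 1 to 3, and 0.25 on array 3 after quantile normalization.

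Immediate early genes, the first to respond to serum, gave signal in nearly every case. Of 22 measured 1 was high, 19 middling, 1 on both sides of 16 and 1 under 16. Thus 90.9% read at least 16, against 52.6% of all genes. Jund, an AP-1 subunit present in resting cells, read 1379, 1666 and 1217, and Jun read 532, 854 and 258. Fos read 162, 258 and 196 and Egr1, a zinc finger factor, read 168, 299 and 216, whereas Fosb was under 16 at 7.8999, 10.5 and 8.81. Dusp1, a phosphatase that switches off MAP kinases, read 1046, 1546 and 892, and Ier3 read 850.2, 1296 and 313, a 4.13-fold spread with array 3 low. The medium held 20% serum throughout, and its part in these levels was not tested.

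In the insulin-like growth factor axis 2 binding proteins were high, whereas the ligands were dim. Igfbp5 and Igfbp2, which bind the ligands outside the cell, read 2727, 3510.3 and 1627 and 2787, 2649 and 1842 and were the 2 high genes among 19. Igf1 read 14.2, 9.93 and 7.63 and Igf2 read 39.9, 16.6 and 10.7, the first under 16 and the second on both sides of it. The receptor genes Igf1r, Igf2r and Insr were middling, at 198, 158 and 158, 191, 214 and 154 and 119.6, 85.6 and 84.9. Irs1, the adaptor of these receptors, read 884, 783 and 371, and Irs2 lay on both sides of 16 at 22.1, 15.01 and 20.6.

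Of 28 receptor tyrosine kinases 15 (53.6%) were middling, 5 on both sides of 16, 8 under 16 and 0 high, a share near the 52.6% of all genes at 16 or more. Fgfr1, the main fibroblast growth factor receptor of myoblasts, read 772, 971 and 713, Pdgfrb read 465, 406 and 465, Pdgfra read 209, 359.6 and 125 and Met, the receptor for hepatocyte growth factor, read 159, 146 and 140.0. The epidermal growth factor receptor Egfr read 27.6, 27.8 and 23.1. Kit, Tek, Tie1, Ret, Erbb3 and Erbb4 were under 16. Among 52 ligands 1 was high, 27 middling, 9 on both sides of 16 and 15 under 16, and the 53.8% at 16 or more was again near the share of all genes. Mif, a cytokine made by many cells, was the high ligand at 2984, 2864 and 1834. Pdgfc read 823, 864 and 630.3, Vegfa, the vascular growth factor, read 364, 612 and 250.3, and the activin subunits Inhba and Inhbb read 620.2, 376 and 271 and 664, 559.9 and 233. Il33, a nuclear cytokine of the interleukin-1 family, read 715, 334 and 286, with array 1 high. Fst, the activin antagonist follistatin, was under 16 at 8.798, 7.099 and 5.64, and so were Bmp2, Bmp4, Nog, Tnf and Il6.

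Of 37 Notch and Wnt genes 26 (70.3%) read at least 16, against 52.6% of all genes. Ctnnb1, beta-catenin, was high at 2183, 2707 and 1672. Notch2 and Notch3 read 474, 370.4 and 526 and 195, 276 and 139.7, Notch1 read 22.5, 25.7 and 24.3, and Notch4 was under 16 at 6.65, 4.14 and 2.97. The Notch mediator Rbpj read 476, 387 and 342, while the target genes Hes1, Hey1 and Hey2 read 36.9, 35.3 and 22.99, 17.2, 7.12 and 18.3 and 3.25, 2.43 and 1.17. Among Wnt receptors Fzd7, which muscle stem cells use, read 418, 469.7 and 235, and Axin2, a target of the pathway, read 26.5, 19.4 and 22.4. Of 23 genes of the TGF-beta and BMP pathway 19 (82.6%) were middling, with Tgfbr2 at 439, 584 and 309, Smad3 at 178, 181 and 116 and Smad4 at 860.0, 613 and 675.

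Of 58 measured chromatin regulators 2 were high, 49 middling, 1 on both sides of 16 and 6 under 16, so that 87.9% read at least 16 against 52.6% of all genes. Rbbp4 and Rbbp7, histone-binding proteins shared by several complexes, were the high genes, at 1343, 1332 and 1138 and 1267, 1031 and 1132. The Polycomb methyltransferases Ezh2 and Ezh1 read 103, 112 and 124 and 101, 118 and 89.6, and Eed and Suz12, their partners, read 170.4, 152 and 129 and 178, 275 and 88.2. The H3K9 methyltransferases Ehmt1 and Ehmt2 read 237, 296 and 201 and 196, 427 and 109.6, and Setdb1 read 57.5, 69.4 and 54.4, whereas Suv39h2 lay on both sides of 16 at 18.01, 12.5 and 8.25. Dnmt1, which maintains DNA methylation, read 163, 154 and 122.6 and Dnmt3a 95.9, 64.6 and 61.01, while Dnmt3b and Dnmt3l were under 16.

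Of 12 measured PRDM genes, a family of zinc finger proteins with a PR/SET domain, 5 were middling, 2 on both sides of 16, 5 under 16 and 0 high. Thus 41.7% read at least 16, below the 52.6% of all genes. Prdm2, the gene the study knocked down elsewhere, read 41.5, 117 and 60.7 on these control arrays at its brightest probe set. Its other probe sets read 86.2, 73.6 and 47.1, and 7.53, 6.73 and 5.29, so that 2 of 3 were middling and disagreed on which array was high. Prdm4 read 69.02, 82.8 and 79.9, Prdm1, which encodes Blimp-1, read 43.8, 32.9 and 28.5, and Prdm16, a factor of brown fat and muscle fate, was under 16 at 7.34, 2.87 and 8.19.

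Of 18 measured imprinted genes, which are expressed from 1 parental allele, 1 was high, 5 middling, 3 on both sides of 16 and 9 under 16, so that 33.3% read at least 16 against 52.6% of all genes. Gnas, the stimulatory G protein alpha subunit, read 2078, 2456 and 1311 and Peg3, a zinc finger gene, read 734, 1271 and 618. Dlk1, Peg10, Plagl1, Grb10 and Mest were under 16, with Dlk1 at 4.13, 2.62 and 6.08 and Mest at 14.4, 10.5 and 5.56.

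Of 30 genes of hypoxia and unfolded protein stress 5 were high, 24 middling and 1 under 16, where 52.6% of all genes read at least 16. Slc2a1, the glucose transporter GLUT1, read 2599, 2094 and 1930.2, Bnip3 read 1923, 2054 and 1432, and Hif1a, the oxygen-regulated factor itself, read 1127, 1088 and 798. Epas1, the related HIF-2 alpha, was the member under 16, at 1.36, 2.53 and 4.73. Car9, carbonic anhydrase 9, read 156, 141 and 115 and Egln3, a prolyl hydroxylase, read 840.4, 896 and 605. Atf4 and Ddit3, transcription factors of the integrated stress response, read 864, 407 and 707 and 456, 298 and 421. Of 30 p53 targets and apoptosis genes 26 (86.7%) were middling and 4 under 16. Ccng1, a p53 target, read 539, 366 and 468, Mcl1, a short-lived survival protein, read 476, 347 and 469, and Bcl2l1, which encodes Bcl-xL, read 111, 106 and 103. The death receptor genes Fas and Tnfrsf10b were under 16, at 5.11, 4.93 and 3.13 and 4.72, 3.09 and 5.59.

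Over 10 lists of markers of other cell types, 114 distinct markers were measured, of which 74 were under 16, 13 on both sides of 16, 27 middling and 0 high. The share at 16 or more was 23.7%, against 52.6% of all genes, and it differed between the lists. Their summed intensity was 2529 to 2657 on the 3 arrays. Of 11 hepatocyte markers 10 were under 16, with Alb, albumin, at 1.05, 3.39 and 5.67, and of 13 germ cell and pluripotency markers 12 were under 16. Of 12 endothelial markers 8 were under 16, among them Pecam1 at 3.01, 1.17 and 3.65 and Cdh5 at 5.04, 4.03 and 2.85, and of 14 macrophage and leukocyte markers 10 were under 16, among them Ptprc (CD45) at 1.01, 1.68 and 0.575 and Lyz2 at 6.602, 5.76 and 8.07. The endothelial markers at 16 or more were Emcn, endomucin, at 74.05, 30.7 and 63.6, Flt1, a receptor for vascular growth factor, at 33.2, 52.8 and 35.7, and Egfl7 at 25.2, 21.03 and 24.1. The summed endothelial level was 140.5 to 174 and the summed macrophage and leukocyte level 510 to 592. Most of the second sum came from Cd14, a lipopolysaccharide co-receptor, at 302, 341 and 383, and Csf1r, the receptor for macrophage growth factor, at 150.2, 86.9 and 103, and Adgre1, the macrophage surface protein F4/80, read 46.4, 16.9 and 35.8. Of 12 epithelial markers 5 were middling, among them Krt19, a keratin, at 94.9, 49.2 and 67.8, Ocln, the tight junction protein occludin, at 48.4, 64.9 and 45.6 and Epcam at 36.5, 31.8 and 38.98, and Cdh1 was under 16. Epcam was middling at a probe set ending in _x_at, and its other probe set read 4.69, 2.25 and 4.27. Of 6 erythroid markers 2 were middling, with Gata1, the erythroid factor, at 59.7, 28.4 and 43.2 and Hba-a1, an alpha-globin, at 20.3, 28.8 and 37.4. Of 10 cardiomyocyte markers 2 were middling, with Nkx2-5 at 54.9, 65.6 and 49.8 and Pln, phospholamban, at 45.97, 71.5 and 70.1. Of 15 neuron and glia markers 5 were middling, with Nefl, the neurofilament light chain, at 205, 274 and 209 and Snap25 under 16 at 2.395, 1.07 and 3.02. Of 11 osteoblast and chondrocyte markers 3 were middling, with Sox9, a chondrogenic factor, at 201, 245 and 147. Of 10 adipocyte markers 4 were middling, with Pparg, the nuclear receptor of fat cell formation, at 84.4, 81.4 and 72.9 and Adipoq, adiponectin, at 0.744, 1.05 and 0.734. Among muscle genes Myf5, Myod1 and Des were well above 16, whereas Myf6, Mef2c and Pax7 were under it. Among markers of other cells Alb, Ptprc, Pecam1 and Cdh5 were under 16, while some markers of each of 8 of the 10 other cell types read at least 16. Cd14 read above Myf5, at 220.0, 170.1 and 143, on each array, and Nefl did so on arrays 2 and 3. The level of single markers therefore does not set the cell types apart. The part of any other cells in the levels of the genes was not tested.

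Families named by symbol gave a scale for what 16 means on these arrays. Olfactory receptors, which are made by sensory neurons of the nose, were under 16 in 36 of 39 genes and on both sides of 16 in 3. All 6 taste receptors were under 16, as were 20 of 23 defensins and 28 of 32 vomeronasal receptors. The Trpn control probe sets, for a bacterial tryptophan gene, read between 0.969 and 7.58. Cytochrome P450 enzymes were under 16 in 54 of 70 genes, potassium channels in 58 of 84, claudins in 15 of 20 and keratins in 26 of 44. At the other end, all 19 heterogeneous nuclear ribonucleoproteins, which package pre-mRNA, read at least 16, as did 46 of 49 proteasome genes and 33 of 35 complex I subunits. Hox genes, which keep positional identity, were divided, with 11 of 33 middling and 18 under 16. Zinc finger genes named Zfp were close to the share of all genes, with 192 of 336 (57.1%) at 16 or more, and solute carriers were at 155 of 321 (48.3%).

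The spread between the 3 arrays, taken over genes of at least 16 on each, was smaller for the brightest genes and changed little below them. Genes that fell under 16 on any array are left out, which narrows the spread of the dimmest genes kept. These values therefore do not settle how spread changes with level near 16. Among the 9567 genes of at least 16 the median SD of log2 intensity over the 3 arrays was 0.29, and the median ratio of the highest to the lowest array was 1.47. The highest array exceeded the lowest over 2-fold for 1511 of these genes, or 15.8%, and for 2 of the 241 high genes. The median SD was 0.20 in the high class and 0.29 in the middling class. By mean intensity it was 0.28 for genes between 16 and 32, 0.31 between 32 and 64 and 0.28 between 512 and 1024, and it was 0.24 between 1024 and 2048 and 0.18 for the 85 genes of 2048 or more. Across all genes, which are not independent replicates, Pearson correlations of log2 intensity were 0.968 between arrays 1 and 2, 0.954 between 1 and 3, and 0.946 between 2 and 3. Without array 3 the median SD was 0.20 for genes of at least 16 and 0.13 for high genes.

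Control array 3 was the lowest array for 4791 of the 9567 genes, and array 2 for 3057 and array 1 for 1719. Its log2 value lay -0.16 from the mean of the other arrays in the median gene. It was more than 2-fold below them for 618 genes (6.46%) and above them for 121 (1.26%). For array 2 the same counts were 142 below (1.48%) and 343 above (3.59%), and for array 1 they were 67 below (0.7%) and 81 above (0.847%). More genes lay below than above with each scaling, but the size of this excess and the sign of the median depended on the scaling. With the arrays scaled to one median, array 3 was below for 420 genes and above for 171, with a median difference of -0.03. After quantile normalization its median difference was 0.11 and its counts were 304 below and 265 above, so that 53.4% of them were below instead of 83.6%. The low 5' to 3' ratios of its control transcripts stand beside these counts, and their part in them was not tested.

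**Figure D4:**
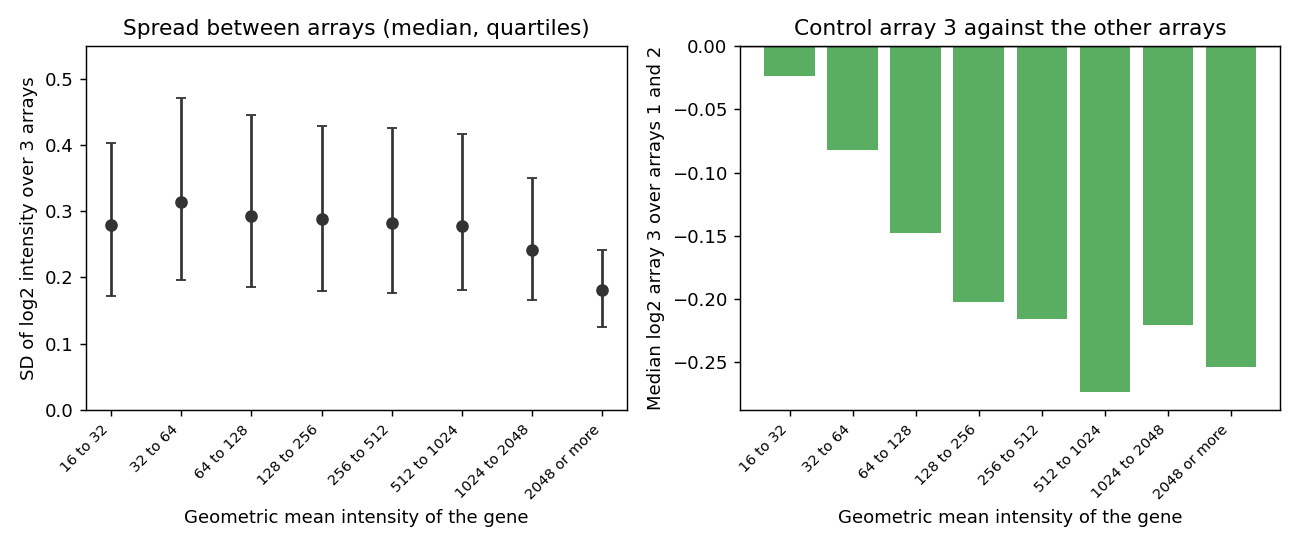
Left, median and quartiles of the SD of log2 intensity over the 3 control arrays, by geometric mean intensity of the gene. Right, median log2 difference of control array 3 from the mean of arrays 1 and 2 in the same bins, which is -0.02 in the dimmest bin, -0.27 between 512 and 1024, and -0.25 in the brightest bin. Genes with any array under 16 are left out, which limits both measures in the dimmest bins.

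The 10 genes of at least 16 with the widest spread were Tgfb1, Odf2, Wdfy3, Ccni, Malat1, Sp3, Nbeal1, 2610005L07Rik, Smc6 and Stac2. Array 2 was the highest for 9 of them and array 3 the lowest for 8. Tgfb1, the cytokine TGF-beta 1, read 152, 513 and 20.9 on arrays 1 to 3, a 24.6-fold range, and its other probe set read 24.7, 14.7 and 21.4. Its level in these cells is therefore not settled by the 3 arrays. Malat1, a nuclear long noncoding RNA, read 276, 1681 and 158 at its brightest probe set and 81.1, 1753 and 70.1 at another, and array 2 was the highest at all 7 of its probe sets. Ccni, cyclin I, read 1096, 1911 and 156 at its brightest probe set 1139.9, 696 and 636 at another and 228, 497 and 26.4 at one more, so that array 3 was the lowest at all of these but by different amounts. The 10 high genes with the narrowest spread were Serpinb6a, Gstp1, Atp5a1, Pabpn1, Rpl37a, Rpl4, Ran, Gdi2, Ddx17 and Rplp2. Serpinb6a, a protease inhibitor, read 1832, 1824 and 1854, and Gstp1, a glutathione transferase, read 2092, 2182 and 2114. Ran, the GTPase of nuclear transport, read 1368, 1324 and 1287, and Gdi2, which recycles Rab proteins, read 1739, 1644 and 1653. Over these 10 genes the ratio of the highest to the lowest array was between 1.02 and 1.06.

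Some groups of genes had medians that differed between the arrays. Over all genes of at least 16 the median deviation from the gene mean was 0.09, 0.04 and -0.11 on arrays 1 to 3, and 0.03, -0.08 and 0.07 after quantile normalization. Mitochondrial ribosomal proteins had median deviations of 0.22, -0.24 and 0.04 from the gene mean on arrays 1 to 3, and complex I subunits 0.24, -0.30 and 0.01, so that array 2 was the low array for both. Matrix proteins had 0.04, 0.25 and -0.36, and protocadherins 0.05, 0.43 and -0.42, with array 2 high and array 3 low. The proteasome list had 0.03, -0.02 and 0.02. After quantile normalization array 2 stayed low for mitochondrial ribosomal proteins, at -0.35, and complex I, at -0.42, and high for matrix proteins, at 0.19. With 1 sample at each array these differences have no test.

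A gene's probe sets often fell in different classes. Of 179 high genes with several probe sets, 47 (26.3%) had another probe set under 16 on all 3 arrays, and of 6007 middling genes with several, 3345 (55.7%) did. Rps6 was one such gene, with its other probe set at 2.84, 2.16 and 6.12. A probe set under 16 therefore does not by itself place a gene under 16.

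The classes also differed in a property that the intensities do not hold, the CpG content of their promoters. CpG dinucleotides are depleted from most of the mouse genome and kept in CpG islands, which cover the start sites of most housekeeping genes. Promoter windows from RefSeq (GRCm38.p6), 250 bases before to 50 after each start, were matched by Entrez identifier for 14366 of the 18192 genes. The ratio of observed to expected CpG had a median of 0.795 for the 202 matched high genes, 0.774 for 7609 middling genes, 0.552 for 1299 genes on both sides of 16 and 0.374 for 5256 genes under 16. A ratio under 0.4 was found for 7.43% of high, 10.7% of middling and 52.99% of genes under 16. Over mean intensity the median was 0.327 for genes under 4, 0.715 for genes between 16 and 64 and 0.796 for genes of 1000 or more, so that most of the difference lay below 64. These are descriptions of classes, and genes are not replicates.

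**Figure D5:**
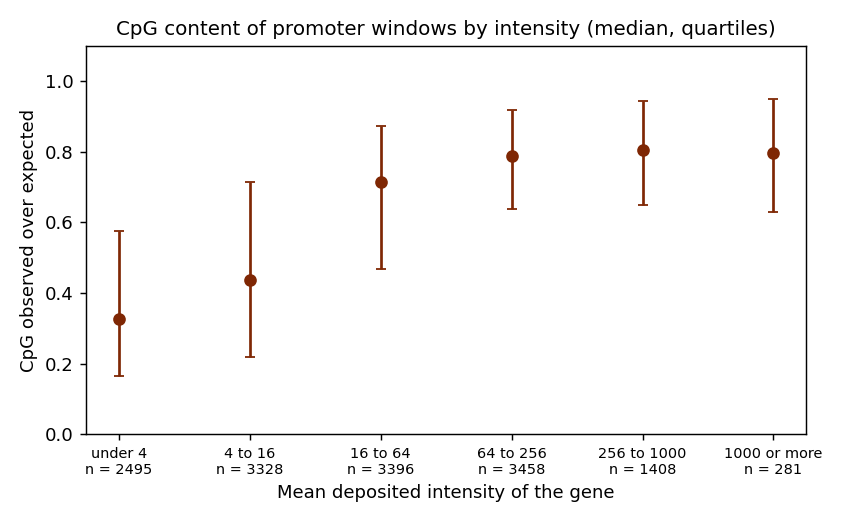
Median and quartiles of the ratio of observed to expected CpG in 300-base promoter windows, by mean deposited intensity of the gene, with the number of genes under each point. The median is 0.327 under 4 and between 0.715 and 0.806 from 16 upward.

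The 120 bases before the start of 6 genes show the range, with each CpG in capitals. Rpl37a (chr1:72711140-72711259, plus strand) and Actg1 (chr11:120348496-120348615, minus strand) are high genes with ratios of 1.18 and 1.12 in their windows. Col3a1 (chr1:45311418-45311537, plus strand) is a high gene with no CpG in its window. Alb (chr5:90460750-90460869, plus strand), Adipoq (chr16:23146416-23146535, plus strand) and Myh4 (chr11:67237692-67237811, plus strand) were under 16, with ratios of 0.272, 0 and 0.0722.
Rpl37a: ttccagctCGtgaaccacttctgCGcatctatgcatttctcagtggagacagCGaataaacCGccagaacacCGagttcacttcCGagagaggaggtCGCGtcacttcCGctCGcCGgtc
Actg1: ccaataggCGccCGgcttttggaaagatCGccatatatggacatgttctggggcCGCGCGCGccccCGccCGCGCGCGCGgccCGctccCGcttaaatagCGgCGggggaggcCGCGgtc
Col3a1: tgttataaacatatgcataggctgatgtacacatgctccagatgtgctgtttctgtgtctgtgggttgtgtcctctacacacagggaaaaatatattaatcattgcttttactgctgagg
Alb: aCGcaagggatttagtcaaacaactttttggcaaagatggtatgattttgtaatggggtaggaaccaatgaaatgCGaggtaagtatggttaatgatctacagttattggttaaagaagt
Adipoq: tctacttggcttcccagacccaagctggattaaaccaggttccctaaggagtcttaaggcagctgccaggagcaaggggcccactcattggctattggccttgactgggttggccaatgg
Myh4: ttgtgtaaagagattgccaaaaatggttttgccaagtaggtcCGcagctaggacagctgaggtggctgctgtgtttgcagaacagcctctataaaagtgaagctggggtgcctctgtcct
The stretch of Actg1 holds 19 CpG and that of Rpl37a 11, against 2 for Alb and 1 for Myh4. Col3a1, as a matrix gene of the high class, and Adipoq, as an adipocyte gene under 16, hold 0, so that CpG content does not sort single genes into the classes.

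Short motifs were counted in the 11719 genes with exactly 1 window. The GC box GGGCGG, on either strand and anywhere in the window, was in 69.7% of high, 68.9% of middling and 36.0% of genes under 16, and in 54.5% of all the measured genes. Over all 22862 single windows in the reference, which include genes not matched to the arrays, the share was 35.2%. The CCAAT box, searched as CCAAT on either strand, was in 41.2%, 39.0% and 38.1%, in 38.7% of all the measured genes and in 38.2% of all windows. The TATA motif TATAAA, on the gene's strand within 50 bases before the start, was in 4.85% of high, 1.48% of middling and 5.53% of genes under 16, in 3.35% of all the measured genes and in 3.14% of all windows. The 8 high genes with it were Anxa1, Anxa2, Btg1, Ecm1, Eef2, Fscn1, S100a4 and Vim. The stretches of 3 of them, from 45 bases before to 15 after the start, are given with the motif in capitals. They are Vim (chr2:13574266-13574325, plus strand), S100a4 (chr3:90603725-90603784, plus strand) and Anxa2 (chr9:69453638-69453697, plus strand).
Vim: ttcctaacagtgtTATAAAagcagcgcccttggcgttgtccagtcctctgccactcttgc
S100a4: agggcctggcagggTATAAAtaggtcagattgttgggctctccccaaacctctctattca
Anxa2: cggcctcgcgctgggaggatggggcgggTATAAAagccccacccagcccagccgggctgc
In S100a4 the ratio of observed to expected CpG was 0.0871, and in Vim and Anxa2 it was 0.421 and 0.46.

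Messages of ribosomal proteins are known to start with a C followed by a run of pyrimidines, the terminal oligopyrimidine tract, through which the mTOR pathway controls their translation. A C at the annotated start followed by 4 bases that are each C or T was found in 8 of 36 ribosomal protein genes with 1 window (22.2%), in 6.06% of high genes and in 2.47% of all single windows. Without the ribosomal family the share of high genes was 2.86%. Annotated starts can lie some bases away from the true ones, which lowers such counts. The tracts of 4 high genes are shown in capitals within 45 bases before to 15 after the start. They are Rplp2 (chr7:141447606-141447665, plus strand), Rps18 (chr17:33955651-33955710, minus strand), Rps27 (chr3:90213634-90213693, minus strand) and Fau (chr19:6057902-6057961, plus strand), which encodes ribosomal protein S30 fused to a ubiquitin-like protein.
Rplp2: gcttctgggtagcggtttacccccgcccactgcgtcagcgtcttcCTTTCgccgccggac
Rps18: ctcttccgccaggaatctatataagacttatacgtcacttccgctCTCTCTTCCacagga
Rps27: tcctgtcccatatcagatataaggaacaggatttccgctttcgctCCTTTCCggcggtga
Fau: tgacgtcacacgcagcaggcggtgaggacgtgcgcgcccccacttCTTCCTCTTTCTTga
Rplp2 read 3586, 3376 and 3556 on arrays 1 to 3, Rps18 read 3609, 2931 and 3166, Rps27 read 1763, 1400.2 and 1380.2 and Fau read 2963, 2595 and 2518, all in the high class.

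Gene type differed between the classes too. Protein-coding genes by RefSeq were 240 of 241 high genes (99.6%), 97.9% of matched middling genes and 82.4% of matched genes under 16. Genes on the X chromosome made up 3.73% of high, 2.96% of middling and 4.08% of genes under 16, against 3.42% of all matched genes.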

How the data were processed

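Cells were lysed for total RNA with Trizol, per the labels' protocols, and 8 µg went into biotinylated cRNA for the Affymetrix arrays. The deposited intensity values are linear, 1 for each probe set and array. The submitters' processing notes name GCOS and PLIER but no version. Neither the background correction nor any normalization between arrays by the authors is described in the labels. The table also holds the 3 knockdown arrays, which were not used, and 0 columns from outside the series.

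The 3 control arrays were used as deposited, in Python 3.11.15 with pandas 2.3.3. The 64 control probe sets and the probe sets with several symbols (932) or none (9160) were left out. Each gene was represented by its probe set with the highest mean over the control arrays, and 34741 of 34945 named probe sets matched RefSeq by Entrez identifier. Ratios of log2 values use no offset. Since 1 group is described, no test between groups was made. Array number limits the precision.

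The members, thresholds and gene lists were chosen with earlier results of these data known. Named are the 30 brightest genes, the 10 widest and 10 narrowest in spread, and members of the 42 fixed lists, which hold 1033 genes, 959 of them measured under 1 symbol. Tcp1, Sf1, Znfx1, Gm45351, Gngt1, Ecm1, Fscn1, Rps27 and Fau were named after their values were seen. The code was tested on simulated data. Alternatives covered scaling, thresholds, the probe set of a gene and leaving out each array.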

Additional observations from a re-analysis of the deposited data

How the results depend on the processing

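No paired analysis was possible because only 1 group was described and no result comes from a test. The count of genes under 16 (6946) was 4689 with a threshold of 8 and 9036 with 32, and the count of at least 16 (9567) was 7628 to 11597 over the same thresholds. The high class of 241 genes became 669 genes at a threshold of 500, 63 at 2000 and 128 with the mean of a gene's probe sets, of which 127 are among the 241. Quantile normalization gave 249 high genes, 225 of them shared. Without array 3, 7312 genes were under 16, 9878 read at least 16 and 313 were high. Leaving out each array gave 242 to 313 high genes and 1002 to 1248 genes on both sides of 16, since fewer arrays leave fewer chances to cross it. With Gngt1, an alternative chosen after seeing the data, the last count was 1680. The median SD of log2 intensity was 0.20 to 0.28 for genes of at least 16 and 0.13 to 0.19 for high genes when each array was left out. For high genes it was 0.154 after quantile normalization and 0.152 at a threshold of 2000. The 618 genes more than 2-fold lower on array 3 became 304 after quantile normalization and 186 among the 3990 genes of 100 or more, a smaller set. The difference in median CpG ratio between genes of at least 16 and those under 16, 0.401, was 0.389 to 0.397 without an array. With the mean of a gene's probe sets, 480 of 1001 listed or named genes moved by more than their SD between arrays. With a threshold of 32, 7 of 42 lists changed their count of members at or above the threshold by over 1.5 times, and G1 cyclins, kinases and E2F factors went from 23 to 15. Without array 2, the count at 16 or more of germ cell and pluripotency markers went from 0 to 1.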
